A study of Mus musculus with 31 samples.

Results

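Kidneys of Pcy/CD1 mice given RGLS4326 were compared with kidneys of untreated CD1 mice, to describe what was still abnormal in the transcriptome after treatment. The members were 18 of the 31 mice sequenced: 13 of the 14 libraries labelled RGLS4326 and all 5 wild-type libraries. Treated mice received 25 mg per kg of RGLS4326 by subcutaneous injection once a month from 5 to 30 weeks of age. Another 12 Pcy/CD1 mice received PBS over the same 25 weeks. The authors' figure legend gives weekly PBS for this model, so the injection schedules of these groups may differ. Wild-type mice were male, age-matched and of the CD1 strain, and were neither injected nor carriers of the Pcy allele. No wild-type mouse received RGLS4326, so genotype, any other difference between the Pcy/CD1 and CD1 stocks, and the injections cannot be told apart in this comparison.

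The library labelled RGLS4326 mouse 9 was left out because its measured profile lay near wild type, so the 13 were chosen by their expression values. For that reason the p-values given here come from all 14 labelled mice, except where a fit is said to leave mice out or to use 1 index series. Tests without mouse 9 are not independent of the choice to leave it out. The levels of the 13 are given as a description. Mouse 9 also stood at wild-type levels in genes that set each of the other Pcy/CD1 libraries, PBS included, apart from all wild-type mice, with 14.1 CPM (counts relative to the library total) of Rpl29, 89.7 CPM of Gm8615 and 195 CPM of Cwc22. These levels go against its label, and whether it is a Pcy/CD1 kidney or a CD1 kidney was not tested. Fold changes, p-values and counts of the 14, against wild type and against PBS, include this library unless they are said to be without it, and it is named where it moves a fold change or a count by more than 1.5 times. Library totals ran from 14892524 to 27459962 counts on genes over the 31 mice, with a median of 19860481 in the 13 treated mice, so genes at low counts carry the widest error. Pairs of libraries were compared within the wild-type group and within the RGLS4326 group only. The closest was that of wild-type mice 3 and 4, with a chi-square per gene of 2.69 where sampling noise gives about 1. Mice 3 and 4 were counted as separate mice. Xist was at or below 0.300 CPM in all 31 libraries.

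Pcy mice carry a recessive mutation and develop slowly enlarging cysts. Cystic kidneys are known for tubular cells that lose their transport programme, for interstitial fibrosis and for infiltration by macrophages. RGLS4326 is a short anti-miR oligonucleotide that pairs with the seed of the miR-17 family, the stretch of a miRNA that recognises its target mRNAs. Repressed targets of the family include Pkd1 and Pkd2, the genes mutated in autosomal dominant polycystic kidney disease, and Ppara, which encodes a transcription factor that drives fatty acid oxidation.

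The 6 mature miRNAs of the family are shown because they are the molecules the drug binds. Their sequences come from RefSeq on GRCm38, and capitals mark the seed, bases 2 to 8, which was the same in all 6.
mmu-miR-17-5p: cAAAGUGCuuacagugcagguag
mmu-miR-20a-5p: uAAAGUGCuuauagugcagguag
mmu-miR-20b-5p: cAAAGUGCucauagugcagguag
mmu-miR-93-5p: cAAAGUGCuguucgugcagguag
mmu-miR-106a-5p: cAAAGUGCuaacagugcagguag
mmu-miR-106b-5p: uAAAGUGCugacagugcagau
A target carries the complement of that seed, GCACTTT, in its 3′UTR, and an A after it makes the longer 8mer match. The sites below are shown for 5 genes described later, with 8 bases of flank on each side and the match in capitals, on the strand of the mRNA. They lie in the last exon of each gene, and the positions given cover GCACTTT without the A of an 8mer. These positions are chr17:24595732-24595738 (Pkd1, plus strand), chr5:104503821-104503827 (Pkd2, plus), chr15:85801668-85801674 (Ppara, plus), chr4:48431103-48431109 (Invs, plus) and chr5:104440815-104440821 (Spp1, plus) of GRCm38.
Pkd1: gggcttctGCACTTTAaaaaggct
Pkd2: aattttctGCACTTTAatttattt
Ppara: actaatctGCACTTTttaacctt
Invs: aacaaaagGCACTTTAgtttgaga
Spp1: aagcttctGCACTTTgcttctgt

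Treated kidneys stayed far from wild type across the transcriptome. Most injury, matrix, macrophage, lymphocyte and chemokine genes were higher, and most proximal tubule genes were lower. Of 15185 genes tested, 4789 (31.5%) passed both thresholds, 0.05 on the adjusted p and 0.5 on the size of the log2 fold change, with 3077 higher (20.3%) and 1712 lower (11.3%) in RGLS4326-treated mice. On the adjusted p alone 9861 genes passed (64.9%). These calls came from the quasi-likelihood test of edgeR, with p-values adjusted by the Benjamini-Hochberg method, and "higher", "lower", "rose" and "fell" below refer to them. The libraries fall into 3 index series, read from restarts of the sample numbers in their names. Called genes numbered 4966 within the first series and 372 within the second, which holds mouse 9 and gave 3488 without it, while the third holds 1 wild-type mouse and gave no test. With the series as a covariate 4728 genes were called. Among the called genes, 528 were more than 4-fold higher and 43 more than 4-fold lower. PBS-treated mice stood next to these values with 6442 called genes against wild type (42.4%), and the treated and PBS-treated mice differed from each other at 327 genes (2.15%). Without mouse 9 the count against wild type was 5129 and that against PBS 145. The count against PBS also fell to 146 to 206 without RGLS4326 mouse 3, 6, 8, 10 or 13 and to 78 to 151 without PBS mouse 2, 3, 5, 9 or 10, and reached 574 without RGLS4326 mouse 2 and 559 without PBS mouse 4. It was 0 by edgeR within the first and within the second index series, where 280 and 2981 genes had an unadjusted p under 0.05.

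The distance of each mouse from wild type is given as a description. The 13 were kept for profiles away from wild type and the 4789 genes were called between these same groups, so both choices fixed much of the share of called genes outside the wild-type range. A wild-type mouse, set against the other wild-type mice, was within their range for 55.3 to 65.5% of the called genes. The 13 treated mice were within the wild-type range for 4.05 to 16.6% of them, with a median of 7.0%, and the PBS-treated mice for 3.95 to 9.94%. The mean absolute log2 difference from the wild-type mean was 0.137 to 0.166 for the wild-type mice, 0.301 to 0.573 for the 13 and 0.384 to 0.653 with PBS. The ranges of the 13 and of PBS overlapped on both measures. Mouse 9 was within the wild-type range for 58.1% of the called genes and differed from wild type by 0.171.

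**Figure D1:**
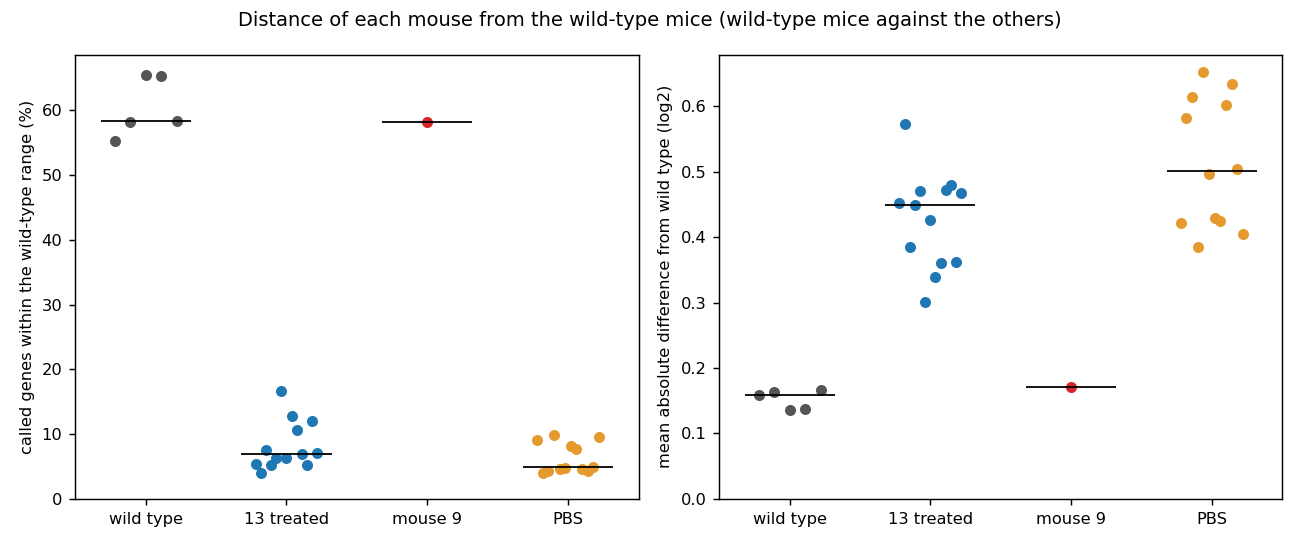
The left panel plots, for each of the 31 mice, the percentage of the 4789 called genes whose level lay within the wild-type range, and the right panel the mean absolute log2 difference from the wild-type mean over all genes tested. Points are mice and lines are group medians; the 13 treated mice lie at 4.05 to 16.6% and overlap the PBS-treated mice, while mouse 9 at 58.1% lies among the wild-type mice.

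Tubular injury genes stayed high. Of 22 such genes, all tested, 19 were higher and 0 lower, with a median log2 fold change of 1.88 beside a median near 0 (0.0037) over all genes tested. Levels are given as CPM, corrected for composition, and as the lowest, median and highest of the 13 treated mice. The 13 were kept for profiles away from wild type, so a lack of overlap with wild type was partly fixed by that choice. Lcn2 encodes Ngal, an iron-carrier-binding protein secreted by injured tubules, and lies on the minus strand of chr2:32384633-32388252. It stood at 0.944, 2.08, 11.2, 11 and 3.07 CPM in the wild-type mice and at 126, 366 and 607 CPM in the treated mice, a log2 fold change of 5.88 (SE 0.81, adjusted p = 9.5e-07). The lowest treated mouse was above the highest wild-type mouse by a wide margin. PBS-treated mice ranged from 205 to 1205 CPM, and their log2 fold change against wild type was 6.68.
Timp1, an inhibitor of matrix metalloproteinases, read 0.0590, 0.238, 1.18, 0.848 and 0.301 CPM in wild type and 8.85, 19.8 and 33.5 CPM in treated mice, a rise of 5.21 on the log2 scale (SE 0.67, adjusted p = 4.0e-07). Spp1, the secreted phosphoprotein osteopontin, read 319, 518, 790, 822 and 568 CPM in wild type and 2262, 3670 and 5380 CPM in treated mice. Its log2 fold change was 2.51 (SE 0.32, adjusted p = 4.2e-07), and the groups did not overlap. Vcam1, a leukocyte adhesion molecule that injured tubule cells also make, rose by 2.82 on the log2 scale. Havcr1, which encodes the injury marker Kim-1, rose by 1.98. The member with the largest p was Fgb, a fibrinogen chain, at 0.81 (SE 0.69, adjusted p = 0.30), where wild-type mouse 5 at 9.33 CPM stood above the others at 0.772 to 2.48 CPM; without that mouse the value was 1.79 and passed both thresholds.

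Fibrosis genes were higher in nearly the whole list. In the fibroblast and matrix list 26 of 29 genes were higher and 0 lower, with a median log2 fold change of 1.5, and for 24 of them all 13 treated mice exceeded all wild-type mice. Over all genes tested, 2454 (16.2%) showed such a separation upwards and 2616 (17.2%) downwards. Col3a1, a fibrillar collagen of scar tissue, read 18.6, 20.8, 38.8, 40.6 and 28.3 CPM in wild type and 149, 227 and 375 CPM in treated mice. Its log2 fold change was 2.90 (SE 0.32, adjusted p = 6.8e-08), beside 3.21 in PBS-treated mice. The fibrillar collagens Col1a2 and Col5a2 rose by 2.29 and 2.86, and Acta2, the smooth muscle actin of myofibroblasts, by 1.05. Col4a1, a collagen of the basement membrane, read 228, 215, 289, 290 and 860 CPM in wild type and 284 to 463 CPM in treated mice, a log2 fold change of -0.01 (SE 0.19, adjusted p = 0.95). Its value rests on wild-type mouse 5, without which it was 0.55 and past both thresholds.

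Leukocyte genes were higher in each of the lists written for them. In bulk tissue more cells of a type and more RNA per cell cannot be told apart, and the same holds for losses. Of 21 macrophage genes tested, 19 were higher and 1 lower, with a median log2 fold change of 2.60, the highest among the immune lists. Ly86, part of a receptor complex on myeloid cells, read 2.42, 1.07, 2.60, 2.85 and 1.99 CPM in wild type and 7.63, 17.4 and 28.3 CPM in treated mice, a log2 fold change of 2.90 (SE 0.32). Cx3cr1, the fractalkine receptor of resident macrophages, rose by 2.60, and Fcgr3, an IgG receptor, by 2.82. The lower member was Mertk, an efferocytosis receptor that is not restricted to macrophages, at -0.69 (SE 0.13). Csf1r, the receptor for the growth factor of macrophages, was at 118 to 126 CPM in wild type and 118 to 170 CPM in treated mice. Its log2 fold change of 0.18 passed the adjusted p alone (0.029).
Of 18 T and B lymphocyte genes, 16 were higher and 1 lower, with a median of 1.78. Cd8a, a co-receptor of cytotoxic T cells, read 0.590, 1.07, 1.42, 1.70 and 3.73 CPM in wild type and 12.3, 16.4 and 21.4 CPM in treated mice, a rise of 3.19 (SE 0.39, adjusted p = 2.6e-07). The T-cell kinase Lck rose by 1.75 and the adhesion receptor Cd2 by 2.31. Igj, the joining chain of secreted antibodies, went the other way at -1.47 (SE 0.38), with wild-type mice at 30.5 to 165 CPM and treated mice at 9.85 to 65.2 CPM, so the groups overlapped. Icos, a T-cell costimulator, was at 0.69 (SE 0.35, adjusted p = 0.083), but passed without wild-type mouse 5, at 1.28, and without RGLS4326 mouse 9.
Of 12 neutrophil genes listed, 7 were tested, 4 had too few counts and Ly6g was not analysed here. Of the 7, 4 were higher and 0 lower. Fpr2 and Fpr1, receptors for formylated peptides, rose by 3.37 and 4.57, and Csf3r, the receptor for granulocyte colony-stimulating factor, by 1.72. All of these were low, with medians of 2.88, 1.30 and 5.62 CPM in treated mice. S100a8 and S100a9, the abundant calprotectin genes of neutrophils, were at -0.59 and -0.23 and Mmp9 at -0.16 (adjusted p = 0.72). Against PBS-treated mice, Fpr2 was higher with RGLS4326 by 1.28 (adjusted p = 0.0062) and Fpr1 by 1.62 (adjusted p = 0.010).

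Signals that recruit leukocytes, and the complement system, were also higher. Of 23 chemokine and cytokine genes, 20 were higher and 0 lower, with a median of 2.01. Ccl2, the main attractant of monocytes, read 0.118, 1.19, 0.769, 0.303 and 0.903 CPM in wild type and 5.28, 11.8 and 13.2 CPM in treated mice, a rise of 3.92 (SE 0.47, adjusted p = 2.0e-07). The related chemokine Ccl7 rose by 3.65 and Tnf by 2.78, each with all 13 treated mice above wild type. Cxcl12, a homeostatic chemokine, was at -0.12 (SE 0.21, adjusted p = 0.64).
Of 22 complement genes, 18 were higher and 1 lower, with a median of 1.40. C1ra, a protease of the classical pathway, rose by 1.44 (SE 0.15), C3ar1, the receptor for C3a, by 3.19, and Cfi, which cleaves C3b and C4b, by 3.46. The central component C3 read 10.3, 15.4, 35.0, 32.0 and 33.5 CPM in wild type and 167, 310 and 408 CPM in treated mice. Cd55, a membrane inhibitor of complement, was lower at -0.63 (SE 0.19), although the treated mice, at 9.45 to 14.4 CPM, lay within the wild-type range of 7.11 to 29.3 CPM. C2 was at 0.00 (SE 0.09, adjusted p = 0.98).

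**Figure D2:**
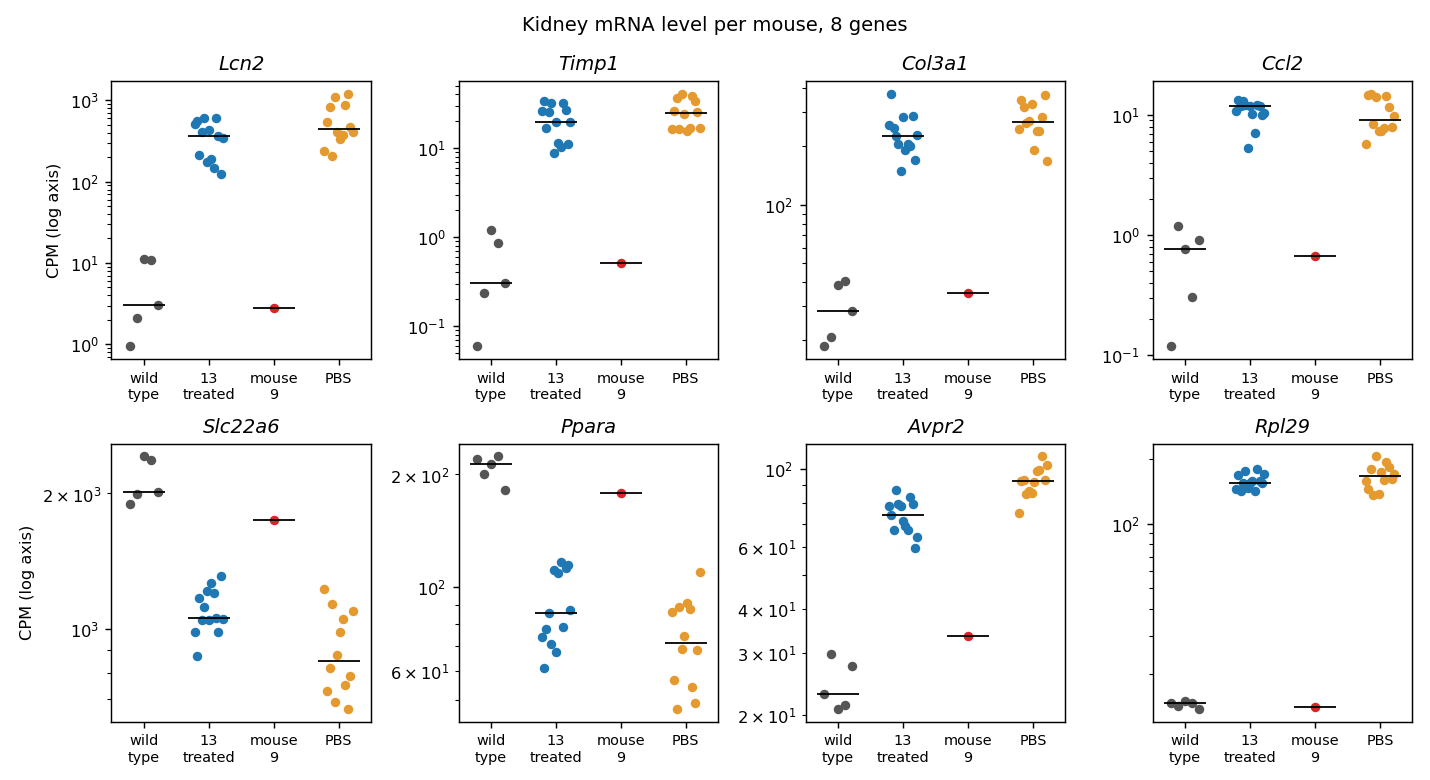
Each panel plots the level of 1 gene in CPM on a log axis for the 5 wild-type mice, the 13 treated mice, mouse 9 and the 12 PBS-treated mice; points are mice and lines are group medians. In all 8 genes the 13 treated mice lie apart from wild type and overlap PBS, as for Lcn2 at 126 to 607 CPM against 0.944 to 11.2 CPM, and mouse 9 lies nearer to wild type.

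Proliferation genes stayed up, with 18 of 24 cell cycle genes higher and 1 lower and a median of 0.92. Bub1, a spindle checkpoint kinase, rose by 1.99 (SE 0.29), and Mki67, which encodes the proliferation marker Ki-67, by 1.66 (SE 0.27). Mki67 read 2.54, 2.91, 7.57, 6.78 and 2.83 CPM in wild type and 11.4, 14.4 and 20.3 CPM in treated mice. Mcm6, a subunit of the replicative helicase, fell by 1.76 on the log2 scale (SE 0.27), from 29.7 to 34.1 CPM in wild type to 4.0 to 10.3 CPM in treated mice. The other helicase subunits listed went up or did not pass, at 1.15 for Mcm3, 0.68 for Mcm5 and 0.42 for Mcm2. Cyclin D1, encoded by Ccnd1, was at 0.03 (SE 0.12, adjusted p = 0.85).

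Developmental signalling genes changed in part. Of 26 Wnt genes tested, 12 were higher and 0 lower, with a median of 0.39. Dkk3, a secreted member of the Dickkopf family, rose by 1.13 (SE 0.14), and the Wnt transcription factor genes Tcf7l1 and Tcf7 by 0.74 and 1.73. Sfrp1, a secreted Wnt antagonist, was at 0.00 (SE 0.09, adjusted p = 0.98). Of 27 TGF-beta and BMP genes, 11 were higher and 2 lower, with a median of 0.25. Ltbp2, which encodes a matrix protein related to the carriers of latent TGF-beta, read 0.177, 0.475, 2.07, 2.42 and 1.20 CPM in wild type and 14.9, 46.8 and 86.2 CPM in treated mice. Its rise of 5.11 (SE 0.66) was among the 6 largest. Bmp1, a procollagen protease, rose by 1.54, and the receptor gene Tgfbr2 by 0.57 (SE 0.09). The 2 lower genes were Id1 and Id2, transcriptional targets of BMP signalling, at -1.07 and -0.64. Ltbp1 was at 0.05 (SE 0.21, adjusted p = 0.86).

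Loss of the proximal tubule programme, the main transport segment of the nephron, remained. Of 30 proximal tubule genes, 25 were lower and 0 higher, with a median log2 fold change of -0.78. For 22 of them all 13 treated mice were below all wild-type mice, beside 17.2% of all genes tested. The choice of the 13 by their expression favours such a separation. Slc22a6, the organic anion transporter OAT1, read 1894, 1996, 2418, 2379 and 2016 CPM in wild type and 872, 1055 and 1310 CPM in treated mice. It fell by 0.90 on the log2 scale (SE 0.13, adjusted p = 1.3e-06), beside a value of -1.25 in PBS-treated mice. The urate transporter gene Slc22a12 fell by 0.91, and Slc13a3, a dicarboxylate transporter, by 1.32 (SE 0.21). Hnf4a, the transcription factor of the mature segment, was at -0.50 (SE 0.12, adjusted p = 0.00070) and did not pass the threshold on size. Cyp2e1, a drug-metabolising enzyme, was at 0.07 (SE 0.13, adjusted p = 0.66).
Metabolic genes of the same direction were those of fatty acid oxidation, with 8 of 25 lower and 1 higher and a median of -0.35. Ppara read 220, 200, 214, 224 and 182 CPM in wild type and 61.1, 85.6 and 117 CPM in treated mice, a fall of 1.11 (SE 0.18, adjusted p = 6.8e-06), and the groups did not overlap. Cpt1a, which admits fatty acids to mitochondria, fell by 0.77. Eci1 was at 0.10 (adjusted p = 0.38). Among 24 respiratory chain genes, 2 were lower and 0 higher, which is below the background of all genes, but all 24 had values below 0 and the median was -0.33. The 2 were Ndufs1 of complex I at -0.65 (SE 0.12) and Atp5b of the ATP synthase at -0.57 (SE 0.10), and Atp5b did not pass under upper quartile scaling. Cox6c was at -0.03 (adjusted p = 0.65).

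More distal segments gave unlike counts. In the thick ascending limb list, 13 of 16 genes (81.2%) passed neither way, beside 68.5% of all genes tested, 1 was higher and 2 were lower, with a median of 0.04. The level of the list lay within the wild-type range in 6 of the 13 treated mice, below it in 6 and above it in 1. Umod, which encodes uromodulin and is the leading marker of that segment, read 5464, 4437, 4980, 4859 and 4242 CPM in wild type and 4037, 4523 and 5296 CPM in treated mice, a log2 fold change of -0.08 (adjusted p = 0.36). Egf, made in the same cells, fell by 0.82 (SE 0.19), and the calcium-sensing receptor gene Casr by 0.65. Cldn19, a tight junction gene, rose by 0.63. The chloride channel subunit gene Bsnd was at 0.00 (SE 0.05, adjusted p = 0.96), and Cldn10 at -0.40 passed the adjusted p but not the threshold on size.
Distal convoluted tubule genes were lower for 5 of 15 and higher for 1, with a median of -0.35. Pvalb, the calcium-binding protein parvalbumin of the early segment, read 65.6, 69.8, 74.7, 71.3 and 50.2 CPM in wild type and 3.82, 5.21 and 9.57 CPM in treated mice, a fall of 2.56 (SE 0.46). Without mouse 9, at 76.6 CPM, its log2 fold change was -3.41. Trpm7, a magnesium channel, fell by 0.66, but did not pass within the second index series, also without mouse 9 (-0.56, adjusted p = 0.067). The magnesium transport gene Cnnm2 at -0.44 and S100g at 0.12 did not pass both thresholds, although Cnnm2 did without wild-type mouse 5 (-0.51).
Collecting duct principal cell genes moved the other way, with 11 of 16 higher, 2 lower and a median of 0.76. Avpr2, the vasopressin receptor through which cAMP drives cyst fluid secretion, read 22.9, 29.8, 20.8, 21.4 and 27.5 CPM in wild type and 59.7, 73.9 and 87.3 CPM in treated mice. It rose by 1.53 (SE 0.14, adjusted p = 2.7e-09). With RGLS4326 against PBS it was at -0.39 (adjusted p = 0.012), which was under the threshold on size. Hsd11b2, which protects the mineralocorticoid receptor from cortisol-like steroids, rose by 1.23, the sodium pump regulator Fxyd4 by 1.55 and the water channel gene Aqp2 by 1.74. Tfcp2l1, a transcription factor of the collecting duct, was at -0.06 (adjusted p = 0.42). The lower members were the water channel gene Aqp4 at -0.84 and the mineralocorticoid receptor gene Nr3c2 at -0.54. In the intercalated cell list 13 of 16 (81.2%) passed neither way, beside 68.5% of all genes tested. Of the 16, 2 were higher (12.5%, beside 20.3% of all genes) and 1 lower (6.25%, beside 11.3%), with a median of 0.04. The level of the list lay above the wild-type range in 10 of the 13 treated mice and within it in 3. Carbonic anhydrase Car15 rose by 1.33 and the transcription factor Foxi1 by 0.66, Slc4a1 fell by 0.89, and Insrr was at 0.00 (adjusted p = 0.98). Foxi1 did not pass within the first index series, at 0.47 (adjusted p = 0.072).

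**Figure D3:**
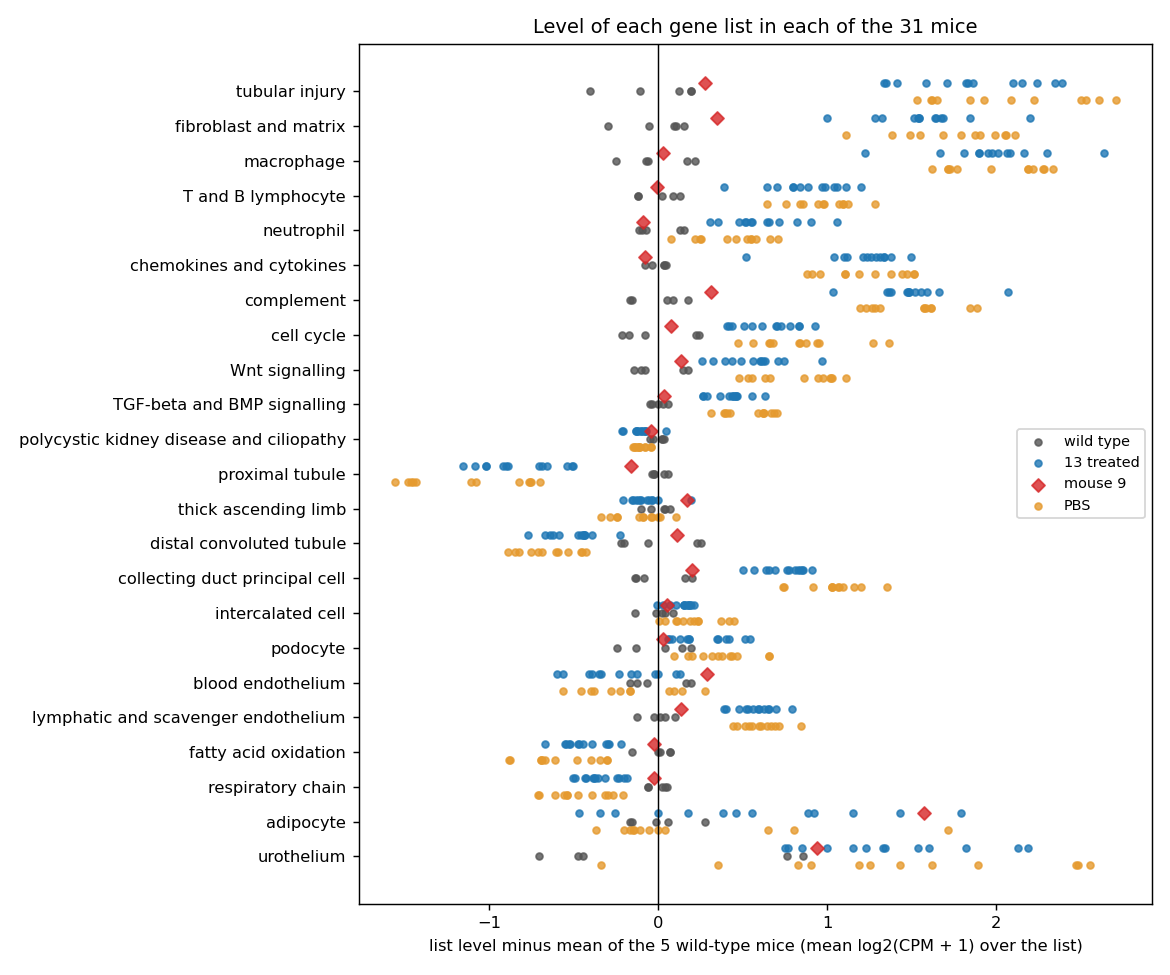
For each gene list with at least 7 tested members, the level in each mouse (mean log2(CPM + 1) over the list, on the x axis) is plotted as its difference from the mean of the 5 wild-type mice. Every one of the 13 treated mice lies above the wild-type range for the injury, matrix, leukocyte and principal cell lists and below it for the proximal tubule list, while for the thick ascending limb 6 of the 13 lie within it, 6 below and 1 above.

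**Figure D4:**
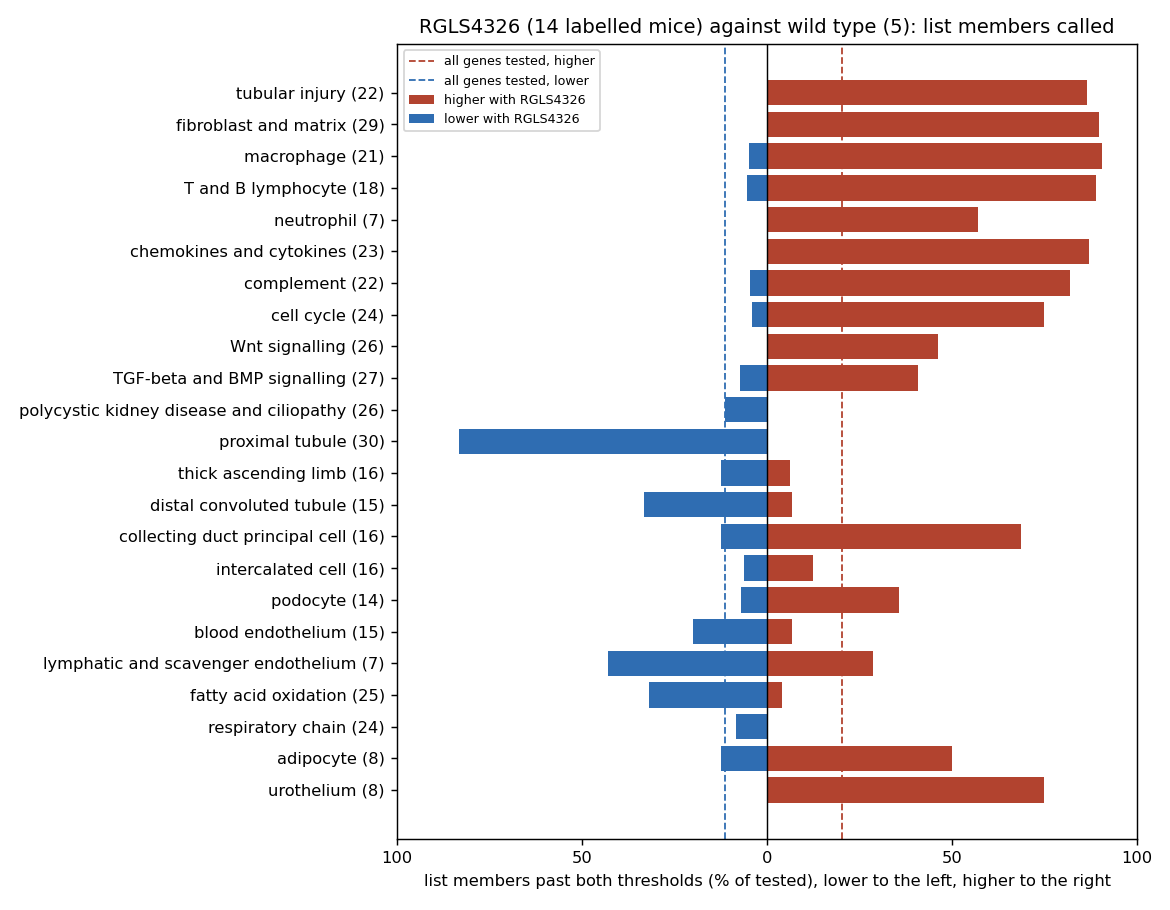
Bars give the percentage of the tested members of each list (number in brackets) that were called higher (right) or lower (left) in the 14 labelled RGLS4326 mice against wild type, and dashed lines the same over all genes tested, 20.3% higher and 11.3% lower. Proximal tubule genes reach 83.3% lower and macrophage genes 90.5% higher.

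Glomerular, vascular and other cell types gave mixed counts. Podocyte genes were higher for 5 of 14 (35.7%, beside 20.3% of all genes tested) and lower for 1 (7.14%, beside 11.3%), with a median of 0.26. The transcription factor gene Tcf21 rose by 1.07 and the scaffold gene Magi2 fell by 0.73. Of 15 blood endothelium genes, 3 were lower (20%) and 1 higher (6.67%), with a median of -0.23. Ehd3, enriched in glomerular endothelium, fell by 0.66, the tight junction gene Cldn5 rose by 0.83, and Esam at 0.32 and Cdh5 at -0.04 (adjusted p = 0.82) did not pass both thresholds. Among 7 genes tested for lymphatic and scavenger endothelium, 2 were higher and 3 lower. Stab2, a scavenger receptor of sinusoidal endothelium, read 0.590, 1.43, 1.18, 1.57 and 1.26 CPM in wild type and 58.9, 79.6 and 126 CPM in treated mice, a rise of 5.99 (SE 0.55, adjusted p = 4.5e-09). Pdpn rose by 1.03 (0.67, adjusted p = 0.19, within the second index series without mouse 9), Reln fell by 1.17, and the lymphatic receptor gene Flt4 was at -0.18 (adjusted p = 0.28), so the other markers did not share the size of the Stab2 difference.
Tissues next to the kidney were also checked. Urothelium genes, which mark the lining of the renal pelvis, were higher for 6 of 8, with a median of 1.69. The uroplakin genes Upk2, Upk1a and Upk1b rose by 2.31, 1.91 and 1.97, but wild-type mice already ranged from 0.708 to 6.89 CPM in Upk1b, and Psca was at 0.55 (adjusted p = 0.35), with 0.27 without wild-type mouse 3 and 1.25 without wild-type mouse 2, and passed within the second index series. Within the first index series the 3 uroplakin genes were at 2.42, 1.86 and 1.91 but did not pass (adjusted p = 0.092, 0.105 and 0.16). The summed level of the 8 genes was 10.7 to 57.6 CPM in wild type and 45.0 to 147 CPM in treated mice. Adipocyte genes were higher for 4 of 8 and lower for 1. The defining adipokine gene Adipoq was at 0 in at least 1 treated mouse and reached 11.2 CPM in another (3.06, SE 1.40, adjusted p = 0.055). It passed without wild-type mouse 5, at 4.19, or without RGLS4326 mouse 1, 11 or 12, and by DESeq2 at 3.09 (adjusted p = 0.046). Retn rose by 3.97 with a large SE of 1.57, Fabp4 rose by 0.71, and Lpl, also made in other kidney cells, fell by 0.92 (-0.26, adjusted p = 0.47, within the second index series without mouse 9). Fabp4 was not called without wild-type mouse 2 or 5 (lowest value 0.62), nor was Retn without RGLS4326 mouse 2 or wild-type mouse 1, 3 or 4 (lowest value 3.38), and within the first index series Fabp4, Retn and Lmod1, a muscle gene, were not called. Summed over the 8 genes, levels were 453 to 812 CPM in wild type and 253 to 562 CPM in treated mice, but most of that sum was Lpl, at 410 to 767 CPM and 225 to 419 CPM. The other 7 genes summed to 37.1 to 47.3 CPM in wild type and 28.2 to 188 CPM in treated mice, of which 10 lay above the wild-type range, 2 within it and 1 below. Of 6 muscle genes tested, Des rose by 0.88 and Lmod1 fell by 0.62, Actg2 was at 1.22 (adjusted p = 0.051) and Mylpf at 0.15. Actg2 passed by DESeq2 at 1.24 (adjusted p = 0.022) and without RGLS4326 mouse 1, 6, 11 or 12 or wild-type mouse 2. Lmod1 was not called without RGLS4326 mouse 1, 7, 11 or 14 or wild-type mouse 3, 4 or 5 (from -0.76 to -0.48 over all mice left out). Both red blood cell genes tested fell, Alas2 by 2.05 and Slc4a1, which is also on the intercalated cell list, by 0.89. The globin genes were not tested, with Hba-a1, Hba-a2 and Hbb-bt at 0 CPM in all 31 libraries. The blood content of the samples cannot be read from these genes. The adrenal genes Star at -0.02 and Hsd3b1 at 0.02 did not pass. The part of these tissues in the results above was not tested.

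Among the genes with the largest differences, some varied little over the 13 treated mice and others more. Camk2b, a subunit of a calcium-dependent kinase, read 0.118, 0.178, 0.0592, 0.121 and 0.0602 CPM in wild type. It read 7.29, 8.59 and 11 CPM in the 13 and 0.2045 CPM in mouse 9. Its rise of 6.18 (SE 0.54, adjusted p = 1.9e-09) was the largest for a gene averaging 5 CPM or more. Fcrls, a receptor-like gene of macrophages, rose by 5.09 (SE 0.66). Among the falls, Gm8615, a predicted gene, read 84.6, 92.1, 97.1, 98.6 and 96.8 CPM in wild type, 0.0496, 0.278 and 0.494 CPM in the 13 and 89.7 CPM in mouse 9. Its log2 fold change was -3.83 (SE 0.88) with all 14 mice and -8.41 without mouse 9. Col6a6, a collagen VI chain, was at -3.73 with 14 mice and -5.53 without mouse 9, and Cpb2, a carboxypeptidase that restrains fibrinolysis, at -3.20 and -4.31. Gm1821, another predicted gene, was at -3.03 and -3.63.
Hdc and Ttr completed the 6 largest falls, but wild-type mice were not alike in either. Hdc, which makes histamine, read 0.295, 212, 0.237, 0.0605 and 263 CPM in wild type and 0.219 to 1.48 CPM in treated mice. All 13 treated mice lay within the wild-type range, so the fall of 6.99 rests on wild-type mice 2 and 5. Ttr, the thyroxine carrier transthyretin, read 2.89, 1.72, 161, 162 and 17.5 CPM in wild type, and 11 of the 13 treated mice lay within that range, with a log2 fold change of -3.36 with 14 mice and -4.0 without mouse 9.

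Among the 215 called genes with a more than 4-fold difference and a mean of at least 5 CPM, 197 were higher and 18 lower. The SD of log2(CPM + 1) over the 13 treated mice ran from 0.0923 to 1.93 with a median of 0.407, and 16 genes had an SD under 0.2. The 4 genes with the smallest SD were named for it. The lncRNA 9030025P20Rik read 0.713 to 2.48 CPM in wild type and 7.36 to 9.19 CPM in treated mice. Rpl29, a ribosomal protein gene, read 14.7, 14.2, 15, 14.6 and 13.7 CPM in wild type and 141, 155 and 179 CPM in treated mice, a rise of 3.35 (SE 0.30, adjusted p = 2.8e-09), with mouse 9 at 14.1 CPM. Zfp949, a zinc finger gene, read 15.4 to 18.2 CPM in wild type and 73.9 to 95.0 CPM in treated mice. Cwc22, a splicing factor gene whose copy number differs between mouse strains, read 207, 181, 203, 207 and 352 CPM in wild type and 18.7, 20.8 and 23.8 CPM in treated mice. Its log2 fold change was -2.78 (SE 0.36) with 14 mice and -3.45 without mouse 9, at 195 CPM. All 4 were at like levels with PBS, where Rpl29 ranged from 136 to 205 CPM and Cwc22 from 18.8 to 23.7 CPM. Lcn2 and Timp1, by contrast, had SDs of 0.80 and 0.65 over the same mice. Reads were counted only where they mapped to 1 place, so values of Rpl29, Cwc22 and the predicted genes, which have near-identical copies or may have them, are uncertain.

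**Figure D5:**
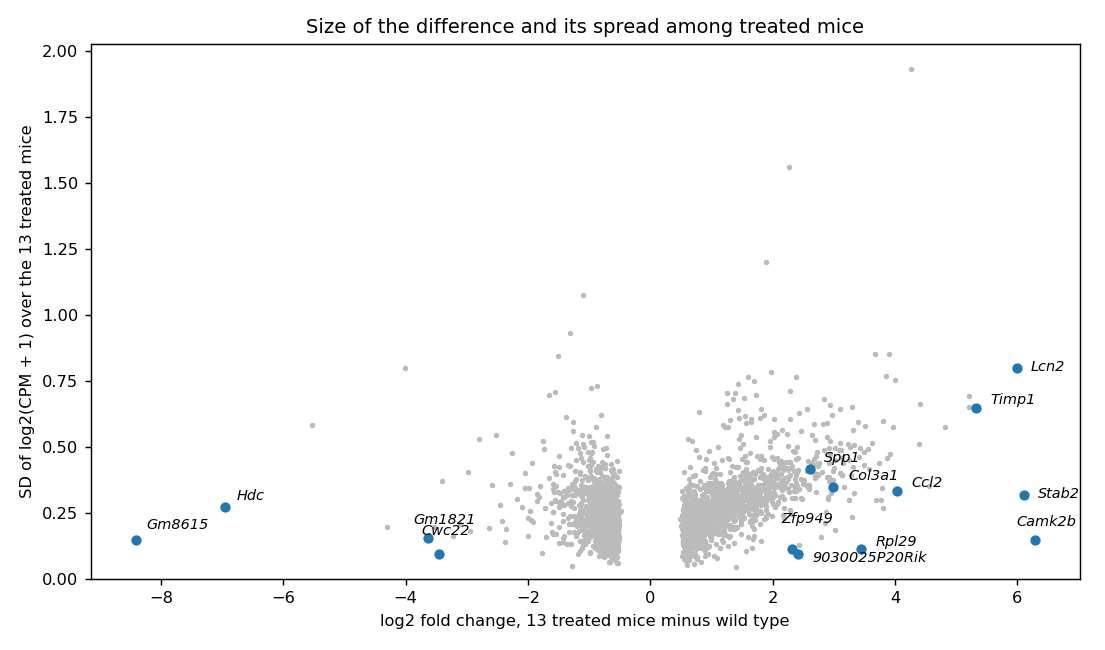
The SD of log2(CPM + 1) over the 13 treated mice is plotted against the log2 fold change of the 13 against wild type, with 1 grey point for each called gene of at least 5 CPM and labelled blue points for named genes. Rpl29, Cwc22, 9030025P20Rik and Zfp949 combine large differences with SDs near 0.1, whereas Lcn2 lies at 0.80.

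Of 26 genes of polycystic kidney disease and the cilium, 3 were lower (11.5%, beside 11.3% of all genes tested) and 0 higher, with a median of -0.07. The level of the list lay below the wild-type range in 12 of the 13 treated mice and above it in 1. Invs, whose protein inversin works in the cilium, read 37.6, 37.1, 37.8, 37.7 and 48.1 CPM in wild type and 18.5, 22.8 and 27.0 CPM in treated mice, a fall of 0.75 (SE 0.11). The transcription factor gene Glis3 fell by 0.56. Ift88, a transport protein of the cilium, was at -0.43 and passed the adjusted p alone. Pkhd1, the gene of recessive polycystic kidney disease, was at 0.01 (adjusted p = 0.88).

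Targets of the miR-17 family were read against wild type in the same fit. Pkd1 read 60.6, 65.4, 69.2, 65.2 and 62.4 CPM in wild type and 68.4, 79.9 and 96.3 CPM in treated mice, a log2 fold change of 0.31 (SE 0.07, adjusted p = 0.00073), which was under the threshold on size. PBS-treated mice, at 64.7 to 92.8 CPM, had a value of 0.30. Pkd2 read 304, 281, 298, 312 and 336 CPM in wild type and 248, 291 and 394 CPM in treated mice, a value of -0.05 (SE 0.10, adjusted p = 0.68). The 5 genes whose sites are printed above did not move together, with Ppara and Invs lower, Spp1 higher and Pkd1 and Pkd2 past neither bound on size. Of 13832 tested genes with an annotated 3′UTR, 1934 (14%) held at least 1 GCACTTT on the mRNA strand of the longest one. In that set 311 were higher (16.1%) and 251 lower (13%), with a median log2 fold change of -0.09 in treated and -0.14 in PBS-treated mice. Genes without a match were higher in 20.9% and lower in 10.9% of cases, with a median of 0.02. The 593 genes with an 8mer match gave 16% higher and 13.7% lower. Genes with a match had longer 3′UTRs, at a median of 2521 bases against 985. Genes of like length were not compared, so the part of length in these shares was not tested. A match of letters is a description and not a measured site.

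List medians were also set beside those of PBS-treated mice, which share the wild-type controls. The median log2 fold change against wild type was 1.88 with RGLS4326 and 1.85 with PBS for tubular injury, 1.5 and 1.76 for matrix, and 2.60 and 2.61 for macrophages. For the proximal tubule it was -0.78 and -1.11, for fatty acid oxidation -0.35 and -0.52, for the principal cell 0.76 and 1.19, for the cell cycle 0.92 and 1.34, for Wnt signalling 0.39 and 0.81, and for adipocytes 2.66 and 1.98. The median over each list of the direct difference per gene, RGLS4326 minus PBS, was -0.36 for tubular injury, -0.26 for matrix and -0.12 for macrophages, beside -0.0043 over all genes tested. It was 0.35 for the proximal tubule, 0.18 for fatty acid oxidation, -0.34 for the principal cell, -0.32 for both the cell cycle and Wnt signalling, and 0.76 for adipocytes. These direct differences include mouse 9, whose tubular injury level was 4.322, beside 5.381 to 6.435 in the 13. Its proximal tubule level was 9.795, beside 8.797 to 9.45. How far mouse 9 moves these medians was not tested. Among the named genes, those that differed from PBS past an adjusted p of 0.05 included Slc22a6, at 0.35 (adjusted p = 0.027, up to 0.060 without PBS mouse 3, 5, 9 or 10), and Tcf7l1, at -0.35 (adjusted p = 0.0099). Both values were under the threshold on size. Both genes stayed past the thresholds against wild type. Lcn2, Timp1, Col3a1, Ccl2 and Ppara had adjusted p-values of 0.059 to 0.91 against PBS.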

How the data were processed

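Kidney polyA RNA was sequenced with stranded libraries and paired reads of 75 bases in 31 mice. Per the labels and methods, the authors trimmed reads with Trim Galore, mapped them to GRCm38 with STAR and counted uniquely mapped reads per gene with HTSeq 0.6.1. The deposited values are raw counts for 23509 genes, and groups come from the sample titles. Reads the authors' counter put on no gene were left out (no feature 8.39 to 10.1%, ambiguous 0.305 to 0.411%, not unique 17.8 to 21.2%).

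Genes passing filterByExpr (15185) were scaled by TMM and fitted with edgeR 4.0.16 (R 4.3.3) as 1 quasi-likelihood model of 3 groups and 31 mice, with Benjamini-Hochberg adjustment. SE, an approximation, was taken from the log2 fold change and the F statistic. CPM uses TMM-scaled totals, and list levels are mean log2(CPM + 1). Sequences and positions come from RefSeq and GENCODE vM21 on GRCm38. In simulated counts for this comparison over 15185 genes, 100 genes were changed by log2 1 and 100 by log2 2. Of these, 79 and 98 were called, with 4 unchanged genes. The measured groups differed at far more genes, with 4789 called. The share of wrong calls among those 4789 was not tested.

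Members, gene lists and tests were chosen with earlier results of these data known. Named genes are Lcn2, Pkd1 and Pkd2, the 6 largest rises and falls called at a mean of at least 5 CPM, the 3 smallest p-values and the largest p of each list, and the 4 called genes over 4-fold with the smallest SD over the 13 mice. Some genes that this rule names are not reported here. Other genes were named after their values were seen. Alternatives covered mice left out, scaling, filter, test (DESeq2 1.42.0), groups in the fit, index series, replicate block, size threshold and pseudocount. Python 3.11.15 with numpy 2.4.6, pandas 2.3.3 and matplotlib 3.10.9 served the other steps. The labels number the mice within groups, and p-values measure the spread between these mice.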

Additional observations from a re-analysis of the deposited data

Results flagged for a closer look

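In each of 144 measures, 118 named genes and 26 list levels, the 5 wild-type mice were examined for a mouse set apart from the other 4 by Dixon's criterion, with a gap of more than 0.71 of the group's range on the log2(CPM + 1) scale. Chance marks about 1 in 20 such groups, and 11 of the 144 were marked.

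Wild-type mouse 5 stood apart in 7 genes. It read 860 CPM in Col4a1, where the others read 215 to 290 CPM, and 352 CPM in Cwc22, where the others read 181 to 207 CPM. In cilium genes it read 48.1 CPM for Invs beside 37.1 to 37.8 CPM, and 36.8 CPM for Ift88 beside 33.9 to 34.6 CPM. It was at 89.6 CPM for Car15 (76.2 to 79.8 CPM in the others), at 306 CPM for Cox6c (345 to 362 CPM) and at 30.4 CPM for Dusp7 (44.1 to 49.7 CPM). Treated mice lay below all wild-type mice in Cwc22, Invs, Ift88 and Dusp7 and above them in Car15, so these directions did not rest on mouse 5.

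Wild-type mouse 4 read 2.85 CPM for C3ar1, beside 1.26 to 1.60 CPM. Mouse 2 read 14.8 CPM for Dkk3, beside 19.2 to 20.7 CPM, and its red blood cell list level was 3.95 beside 4.19 to 4.23. Mouse 3 read 1.30 CPM for Mmp9, beside 0.713 to 0.843 CPM.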

How the results depend on the processing

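The 4789 called genes ran from 4563 to 5129 when each mouse was left out in turn, with 2955 to 3227 higher and 1608 to 1902 lower. Under the other scalings, filters, tests and mice in the fit the counts stayed within 1.5 times, from 4108 (mean of at least 1 CPM) to 5287 (no filter), with 4802 from DESeq2. Upper quartile scaling raised the higher share of calls from 64.3 to 73.8% and the median of all genes to 0.096. Within index series 2 counts fell to 372 (289 higher, 83 lower). Without a threshold on size 9861 genes passed (4938 higher, 4923 lower), and with an absolute log2 fold change over 1, 2150 (1792 higher, 358 lower).

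Among named genes, Col4a1 ran from -0.16 to 0.55 with each mouse left out (0.55 without wild-type mouse 5) and was at 0.90 within index series 1. Hdc turned to 1.80 within index series 2 and 1.85 there without mouse 9, and Ttr to 1.33 within index series 1. Each of these fits lacked the wild-type mice with the high values of that gene, mouse 5 for Col4a1, mice 2 and 5 for Hdc and mice 3 and 4 for Ttr. Of 118 named genes, 108 kept their side of the thresholds under every mouse left out. Within index series 1, with 4 treated and 2 wild-type mice, 7 lost their call (Fabp4, Foxi1, Lmod1, Retn, Upk1a, Upk1b and Upk2) and 7 gained one. Within index series 2, 74 lost their call and 1 gained one, and without mouse 9 these numbers were 6 (Fabp4, Lmod1, Lpl, Pdpn, Retn and Trpm7) and 3 (Cnnm2, Psca and Uqcrc1). For the comparison with wild type, a pair of alternatives was chosen after seeing the data: that series without mouse 9, and wild-type mice 3 and 4 summed as 1 mouse, which gave 4725 called genes.

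Replicate numbers are shared by the labels but mark different animals. Same-numbered treated and wild-type mice correlated at -0.121 to 0.0987 in their deviations over 5 pairs, with 0 of 5 matching best, so the numbers did not pair the mice. With the replicate block 5266 genes were called. Under it Fabp4 (adjusted p = 0.063) and Lmod1 (adjusted p = 0.102, edgeR for both) lost their call and Actg2, Adipoq, Ift88 and Uqcrc1 gained one. Actg2 and Adipoq also gained one under upper quartile scaling, with RGLS4326 and wild type only and by DESeq2, and Actg2 with the index series as covariate or the filter at a mean of 1 CPM. The count of 327 against PBS, whose alternatives were all added after seeing the data, ran from 78 to 574 with each RGLS4326, PBS or wild-type mouse left out and was 43 with the replicate block. Within index series 1 and within series 2, with or without mouse 9, edgeR called 0 genes against PBS, with 280, 2981 and 2242 at an unadjusted p under 0.05, and other tools were not run there. Other settings gave 265 to 401, the last by DESeq2. Replacing the pseudocount of 1 by 0.1 or 5 changed the size but not the sign of the list levels.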
